A study of Rattus norvegicus with 44 samples.

Results

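Kidneys of 24 obese ZSF1 rats were compared here, 12 from animals given Enalapril with Compound 1 (the combination) and 12 from animals given Compound 1 alone, out of 44 animals sequenced in the series. Members were chosen by their labelled treatment, not by any measured value, and every gene with FPKM (read fragments scaled by transcript length and by the library's mapped total) above 1 in at least 9 of the 44 animals was tested, 13482 of 32883 entries. All 4 groups were male obese ZSF1 rats, a hybrid strain with a leptin receptor defect that develops obesity, diabetes, hypertension and progressive kidney disease, implanted with a telemetry device and dosed in feed for 6 months from 22 weeks of age. The combination group received Enalapril at 3 mg/kg/day and Compound 1 at 1 mg/kg/day, the Compound 1 group was started on 1 mg/kg/day and then raised to 3 mg/kg/day, the Enalapril group (n = 9) received Enalapril at 3 mg/kg/day, and the Vehicle group (n = 11) received neither drug. Adding Enalapril and using the lower final dose of Compound 1 therefore cannot be told apart in this comparison. The RNA came from whole kidney tissue, with 1 library per animal, so that fewer cells of a type and less RNA per cell cannot be told apart either.

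Enalapril inhibits angiotensin-converting enzyme, which makes angiotensin II from angiotensin I. Angiotensin II constricts vessels, promotes aldosterone release and promotes inflammation and scarring in the kidney. Compound 1 acts on soluble guanylate cyclase (sGC), the nitric oxide receptor that makes cyclic GMP in vessels and interstitial cells. In diabetic kidney disease, stressed tubular cells are known to express injury proteins such as KIM-1 (Havcr1) and NGAL (Lcn2), while leukocytes and matrix build up between the tubules.

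The libraries of both groups overlapped in relative depth, 0.860 to 1.33 with Compound 1 against 0.837 to 1.28 with the combination (1 is the middle library; permutation test, 100000 resamples, p = 0.705), while the number of reads behind each FPKM is unknown. Genes that define kidney were present in each group, and Umod, the uromodulin of the thick ascending limb, ran from 678 to 1398 FPKM (median 1147) with Compound 1 and from 575 to 1375 FPKM (median 1205) with the combination. The mean log2 level of 5 inner medulla markers was lower in the combination, 3.75 ± 0.151 against 3.95 ± 0.187 (SD, n = 12 each, permutation test, p = 0.0068). Of the 5, 4 had a negative log2 fold change, the lowest Aqp4 at -0.47, and 1 a positive one, Cryab at 0.09. Their summed FPKM was not lower by median, 184 with the combination against 179 with Compound 1. Transcripts of 13 mitochondrial genes made up 32.1 ± 4.84% against 30.2 ± 3.96% of FPKM (permutation test, p = 0.300).

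The library of animal 3011, labelled Compound 1, stood apart from the other 11 libraries of its group. Of the 443 genes that differed when it was left out of the fit, it lay nearer the combination mean on 386 (87.1%), and it was the lowest of 12 on 223 of the 390 lower ones. Animal 3010 was on the combination side for 71.0% of genes called without it and animal 3001 for 1.90%, the other extreme of the group. Animals 4011 and 4002 of the combination were on their own group's side for 37.9% and 47.8%. The labels give no reason for this spread. Whether animal 3011 carries a wrong label or its library was exchanged was not tested, and if so the values over all animals would hold a misplaced one. All animals were kept in the values below, and values without the library labelled 3011 are given beside them. That library was singled out by its place between the 2 groups. Leaving it out therefore tends to widen the differences by construction and adds no support for them.

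**Figure D1:**
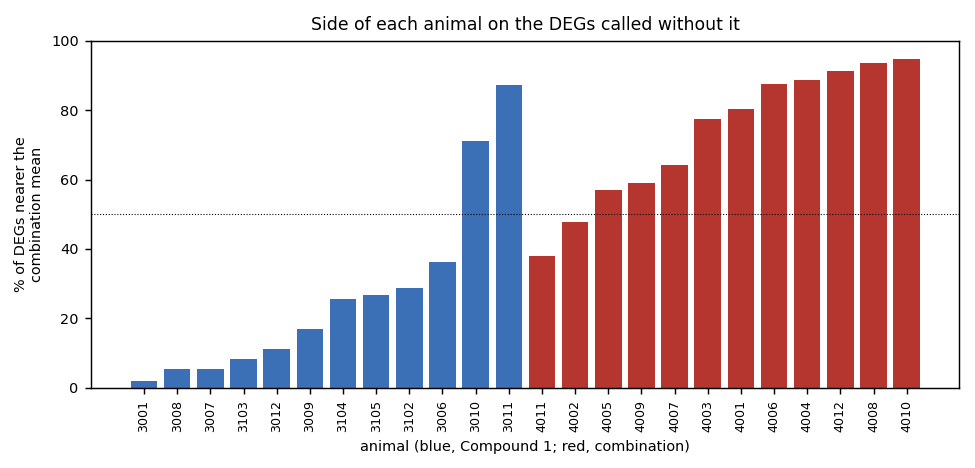
Bars give, for each of the 24 animals, the percentage of genes called between the groups without that animal on which its log2(FPKM + 0.1) lay nearer the combination mean than the Compound 1 mean; blue bars are Compound 1 and red bars the combination. Animal 3011 (87.1%) and animal 3010 (71.0%) of Compound 1 stand above the dotted line at 50%, and animals 4011 (37.9%) and 4002 (47.8%) of the combination stand below it.

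Kidneys of the combination had less mRNA for some tubular injury proteins, chemokines, matrix proteins, complement factors and leukocyte markers than kidneys of Compound 1 alone, 8 of 22, 11 of 36, 7 of 33, 9 of 42, 5 of 17 (macrophage) and 5 of 17 (T and B cell) tested genes of those lists. In the limma fit of log2(FPKM + 0.1) over all 4 groups, 314 of 13482 genes (2.33%) passed 0.05 after adjustment with a fold change over 1.5 or below 0.66, and are called differentially expressed genes (DEGs). Of these, 37 (0.274% of tested genes) were higher and 277 (2.05%) lower in the combination, and 4895 genes had an unadjusted p under 0.05. The median log2 fold change of all tested genes was -0.10 rather than 0. Median-of-ratios scaling, which brings that median to -0.01, gave 90 higher (0.668%) and 147 lower DEGs (1.09%), and quantile normalization gave 105 higher and 108 lower, so the excess of lower DEGs depends on the scaling. Without animal 3011 there were 53 higher (0.393%) and 390 lower DEGs (2.89%), and without animal 3001 there were 14 and 196.

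**Figure D2:**
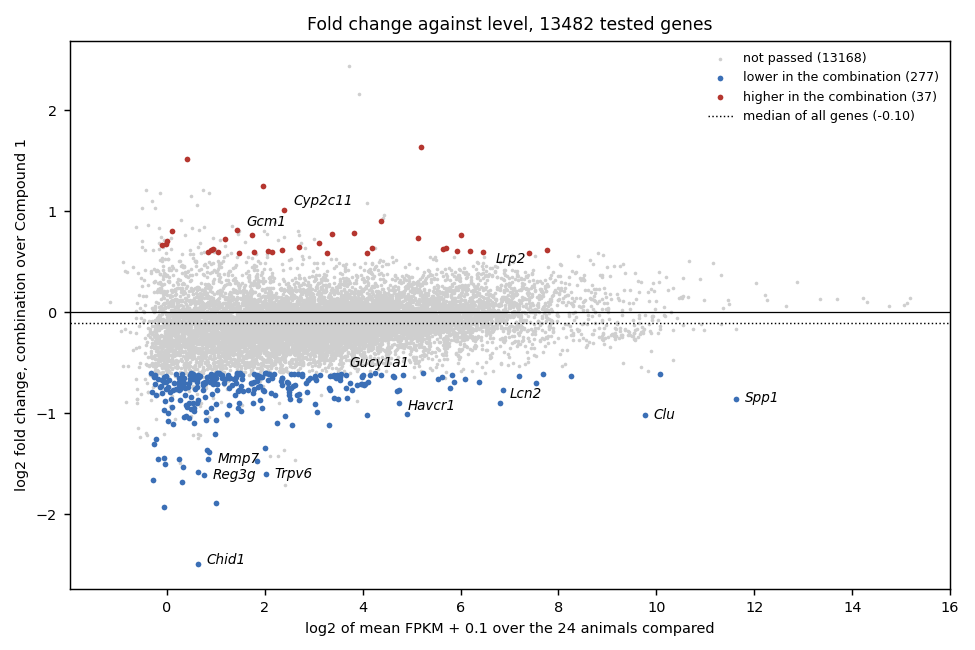
Each point is 1 of 13482 tested genes, with the log2 of its mean FPKM + 0.1 over the 24 animals on the horizontal axis and the log2 fold change, combination over Compound 1, on the vertical axis; red points are the 37 higher and blue points the 277 lower DEGs. The dotted line is the median of all genes, -0.10.

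With the inner medulla score as a covariate, 73 DEGs were left, 3 higher and 70 lower. A set of 41 DEGs was called under every alternative in which they were tested, and those of low level were not tested with FPKM above 5. The 2 higher ones included Gcm1, and the 39 lower ones included Havcr1, Lcn2, Clu, Spp1, Trpv5, Trpv6, Mmp7, Tnc, Reg3g, Il19, Il24, Ccl7 and Cfi. No DEG separated the groups completely when all 24 animals were counted. Animal 3011 was picked for lying nearest the combination, so leaving it out opens gaps by construction. Without animal 3011 the ranges of 12 DEGs did not overlap, 5 higher (among them Slc22a2, Dio1, Rdh16 and Miox) and 7 lower (Havcr1, Lrat, Fgb, Ccn5, Scel and the gene models LOC100912195 and LOC299282), where 14 (0.104%) and 11 (0.0816%) of all tested genes did so. Across all 13482 genes with all animals, 1 gene (0.00742%) was higher without overlap and none was lower. That gene was Smim1, whose log2 fold change of 0.37 lay below the fold threshold.

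**Figure D3:**
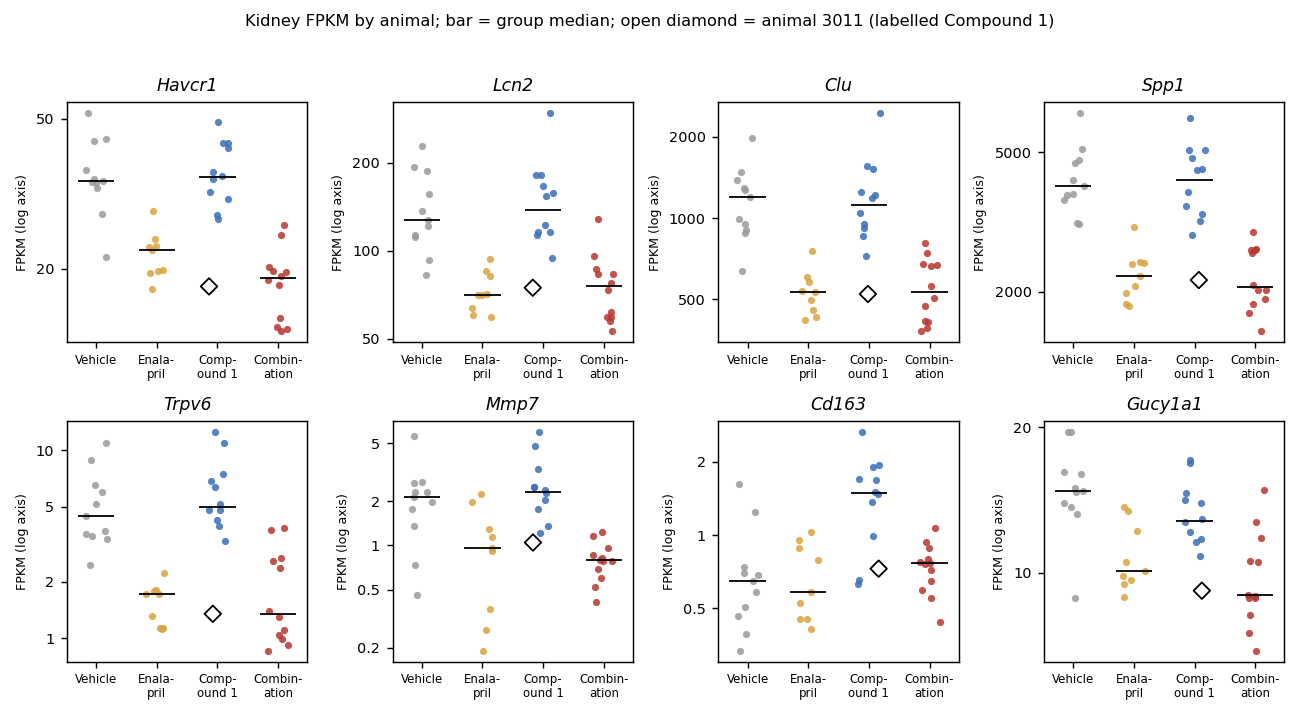
Each panel gives the FPKM of 1 gene in every animal of the 4 groups on a log axis, with the group median as a bar and animal 3011 as an open diamond. Havcr1, Lcn2, Clu, Spp1 and Trpv6 of animal 3011 are the lowest of the Compound 1 group.

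Of the genes that make angiotensin II, Agt, angiotensinogen, its precursor, had a log2 fold change of 0.26 (adjusted p = 0.00746, SE 0.07), below the fold threshold. Ace, the target of Enalapril, ran from 6.601 to 10.1 FPKM (median 8.11) with Compound 1 and from 5.396 to 9.04 FPKM (median 6.62) with the combination, with a log2 fold change of -0.25 (adjusted p = 0.0197, SE 0.08). Agt was on the higher side and Ace on the lower, each by less than the 1.5 and 0.66 limits, and the groups overlapped for both. With the inner medulla covariate neither gene passed after adjustment in limma (adjusted p = 0.080 for Agt and 0.165 for Ace). Under median-of-ratios scaling the log2 fold change of Ace was -0.15 and did not pass (adjusted p = 0.124), while that of Agt was 0.35 (adjusted p = 0.00323). The lower Ace therefore depends on the scaling and on the covariate, and the higher Agt on the covariate.

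None of 16 tested genes of nitric oxide and cyclic GMP signalling was a DEG (2.33% of all tested genes were), with a list median of -0.08. Without a fold threshold 2989 of 13482 genes passed 0.05 after adjustment in limma, and sGC subunits were among them. Gucy1a1, the alpha-1 subunit, ran from 9.19 to 17.1 FPKM (median 12.8) with Compound 1 and from 6.91 to 14.9 FPKM (median 8.99) with the combination, a log2 fold change of -0.42 (adjusted p = 0.00688, SE 0.11). Gucy1b1, its heme-binding partner beta-1, ran from 4.93 to 10.4 FPKM (median 7.82) and from 4.47 to 8.45 FPKM (median 5.93), a log2 fold change of -0.39 (adjusted p = 0.0109, SE 0.11). Both were lower by less than the fold threshold, and 7 of 12 combination animals for Gucy1a1 and 3 of 12 for Gucy1b1 lay below every Compound 1 animal. With the inner medulla covariate the limma adjusted p-values of Gucy1a1 and Gucy1b1 were 0.0660 and 0.114. Under median-of-ratios scaling their log2 fold changes were -0.32 and -0.29. Prkg2, a cyclic GMP-dependent kinase, was under the filter, with a median of 0.292 FPKM with Compound 1 and 0.246 with the combination.

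Outside that list, 2 DEGs act on cyclic GMP and were picked after their values were seen. Gucy1b2, an sGC beta-2 subunit found in kidney, ran from 4.36 to 11.3 FPKM (median 7.45) with Compound 1 and from 9.23 to 15.03 FPKM (median 11.2) with the combination, a log2 fold change of 0.59 (adjusted p = 9.04e-04, SE 0.12), at the edge of the fold threshold. It lost its call in 12 of 24 fits that left out 1 animal. Guca2b, uroguanylin, a peptide that stimulates a membrane guanylate cyclase and sodium excretion, ran from 15.3 to 86.5 FPKM (median 39.1) with Compound 1 and from 11.5 to 34.6 FPKM (median 16.5) with the combination. Its log2 fold change was -1.01 (adjusted p = 8.53e-04, SE 0.20), and -1.13 without animal 3011. Animal 3011 had the lowest Guca2b of its group, and the other 11 started at 24.6 FPKM.

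Tubular injury genes gave lower DEGs only. Of 22 tested, 8 were lower DEGs (2.05% of all tested genes were) and none higher, 21 had a negative fold change, and the list median was -0.49 (all genes -0.10). The 8 were Havcr1, Lcn2, Spp1, Clu, Krt18, Krt19, Anxa1 and C3. The same count was 6 under median-of-ratios scaling, 5 with the inner medulla covariate and 8 without animal 3011. The summed FPKM of the list ran from 4540 to 12033 with Compound 1 (median 7588) and from 3609 to 6039 with the combination (median 4677).

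Havcr1, KIM-1, a phosphatidylserine receptor that proximal tubule cells put on their surface after injury, ran from 17.9 to 49.1 FPKM (median 34.9) with Compound 1 and from 13.6 to 26.1 FPKM (median 18.9) with the combination. Its log2 fold change was -0.90 (adjusted p = 3.94e-05, SE 0.13), and -0.98 without animal 3011. Animal 3011 was the lowest of its group. The other 11 Compound 1 animals began at 27.1 FPKM, above every combination animal. Lcn2, an iron-scavenging lipocalin released by stressed distal tubule cells, ran from 74.7 to 296 FPKM (median 138) and from 52.9 to 128 FPKM (median 75.4), a log2 fold change of -0.90 (adjusted p = 3.88e-04, SE 0.16). Animal 3001 held the highest Lcn2, and all 12 combination animals were below the Compound 1 median.

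Clu, clusterin, a secreted chaperone, ran from 524 to 2449.7 FPKM (median 1114) with Compound 1 and from 381 to 809 FPKM (median 532) with the combination, a log2 fold change of -1.02 (adjusted p = 2.11e-04, SE 0.17). Spp1, osteopontin, an adhesive cytokine of injured tubules, was the most abundant DEG of the list and ran from 2159 to 6286 FPKM (median 4163) and from 1540.0 to 2963 FPKM (median 2058), a log2 fold change of -0.86 (adjusted p = 8.35e-05, SE 0.13). For both genes animal 3001 was the highest and animal 3011 the lowest of Compound 1, and for Spp1 7 combination animals lay below that lowest value. Cst3, cystatin C, a housekeeping protease inhibitor followed as a filtration marker, did not pass the test (log2 fold change -0.16, adjusted p = 0.119, SE 0.08).

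The apical channels of distal calcium reabsorption, Trpv5 and Trpv6, were the lower DEGs among 13 tested genes of the list. The other 11 did not pass, and 2.05% of all tested genes were lower DEGs. Trpv6, an apical calcium channel, ran from 1.35 to 12.5 FPKM (median 5.003) with Compound 1 and from 0.8599 to 3.85 FPKM (median 1.35) with the combination, a log2 fold change of -1.60 (adjusted p = 1.96e-04, SE 0.27). Trpv5, the main calcium channel of the distal convoluted tubule, ran from 5.24 to 17.99 FPKM (median 10.2) and from 3.85 to 8.295 FPKM (median 5.29), a log2 fold change of -0.91 (adjusted p = 1.20e-04, SE 0.14). Every combination animal was below the Compound 1 median for both channels, and without animal 3011 the differences were -1.77 and -0.99. Of the calcium carriers in the cytoplasm, Calb1 had a log2 fold change of -0.14 (adjusted p = 0.435, SE 0.13) and did not pass. S100g had 0.51 (adjusted p = 0.0482, SE 0.19), short of the fold threshold. It was a higher DEG under median-of-ratios scaling (0.61), quantile normalization and sample weights. The list median was -0.03, above the -0.10 of all genes.

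Chemokines and cytokines gave 11 lower DEGs and none higher among 36 tested (2.05% of all tested genes were lower DEGs), with a list median of -0.37. The 11 were Ccl2, Ccl7, Ccl20, Cxcl1, Cxcl6, Cxcl13, Il1rn, Il24, Lif, Ltb and Spp1. Median-of-ratios scaling gave 8 lower DEGs in the list, the inner medulla covariate 4, and leaving out animal 3011 gave 12. RefSeq promoter sequences (build GRCr8, 250 bases before to 50 after the start) were at hand for 9 of the 11, and 3 are shown because their genes are chemokines that share a match to GGG, any 2 bases, then TTTCC, a form of the NF-kappaB site. Capitals mark each match on either strand, and the sequences read 5′ to 3′ on the gene's strand.
Cxcl1 (chr14:17479272-17479571, minus strand): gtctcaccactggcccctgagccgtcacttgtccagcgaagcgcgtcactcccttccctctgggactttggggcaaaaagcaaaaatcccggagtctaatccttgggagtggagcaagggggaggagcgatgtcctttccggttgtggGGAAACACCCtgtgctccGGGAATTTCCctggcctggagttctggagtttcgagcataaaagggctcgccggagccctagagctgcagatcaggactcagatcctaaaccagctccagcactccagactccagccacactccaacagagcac
Cxcl6 (chr14:17596368-17596667, minus strand): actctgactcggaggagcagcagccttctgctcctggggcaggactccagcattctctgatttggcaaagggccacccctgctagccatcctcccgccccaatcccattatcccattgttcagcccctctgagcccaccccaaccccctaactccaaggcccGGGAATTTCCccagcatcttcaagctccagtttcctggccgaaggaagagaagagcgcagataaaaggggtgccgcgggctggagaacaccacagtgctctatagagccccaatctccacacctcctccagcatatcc
Ccl20 (chr9:91836909-91837208, plus strand): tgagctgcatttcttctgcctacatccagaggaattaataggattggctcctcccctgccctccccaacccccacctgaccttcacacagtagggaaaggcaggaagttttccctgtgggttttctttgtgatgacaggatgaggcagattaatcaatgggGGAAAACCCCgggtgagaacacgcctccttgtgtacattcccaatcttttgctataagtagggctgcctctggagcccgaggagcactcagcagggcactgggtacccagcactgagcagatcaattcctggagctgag
Cxcl1 holds 2 matches, which do not overlap, and Cxcl6 and Ccl20 hold 1 each. Of the 9 promoters, 5 (Cxcl1, Cxcl6, Ccl20, Il1rn and Ltb) held the letters, against 0 of 20 promoters of tested cytokine genes that were not DEGs and 512 of 33469 promoters in all (1.53%). The motif was chosen after the fold changes were seen, and a match describes the letters only.

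Cxcl6, a neutrophil-attracting chemokine, ran from 0.835 to 2.67 FPKM (median 1.62) with Compound 1 and from 0.305 to 1.46 FPKM (median 0.705) with the combination, a log2 fold change of -1.02 (adjusted p = 6.77e-04, SE 0.20). Cxcl1, of the same receptor family, ran from 0.478 to 1.799 FPKM (median 0.939) and from 0.117 to 1.32 FPKM (median 0.6898), a log2 fold change of -0.73 (adjusted p = 0.0304, SE 0.25). Both stood near 1 FPKM, and with a pseudocount of 1 neither was a DEG. Cxcl1 also lost its call with quantile normalization, the inner medulla covariate, the rank-sum test and in 6 of 24 fits that left out 1 animal. Ccl20, which draws CCR6-bearing lymphocytes, ran from 2.44 to 8.97 FPKM (median 4.22) and from 1.91 to 4.09 FPKM (median 2.46), a log2 fold change of -0.74 (adjusted p = 8.94e-04, SE 0.15). Ccl20 was not a DEG with a pseudocount of 1, quantile normalization or the covariate. Ccl7, a monocyte chemokine, ran from 2.53 to 6.81 FPKM (median 4.19) and from 1.27 to 3.72 FPKM (median 1.998), a log2 fold change of -0.90 (adjusted p = 5.97e-04, SE 0.17), and 8 of 12 combination animals were below every Compound 1 animal.

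Il24 and Il19 are IL-10-family cytokines that signal to epithelial cells. Il24 ran from 3.72 to 14.3 FPKM (median 7.49) with Compound 1 and from 2.25 to 4.99 FPKM (median 3.39) with the combination, a log2 fold change of -1.12 (adjusted p = 3.73e-04, SE 0.20). Il19, which was not on the list, ran from 1.65 to 10.8 FPKM (median 5.17) and from 0.569 to 3.26 FPKM (median 1.66), a log2 fold change of -1.47 (adjusted p = 3.88e-04, SE 0.26). Both genes were highest in animal 3001 and lowest in animal 3011 of the Compound 1 group, and all combination animals lay below the group's median. Il1b, the inflammasome cytokine, had a log2 fold change of -0.49 (adjusted p = 0.0166, SE 0.15), below the fold threshold. In the JAK-STAT list, 2 of 39 genes were lower DEGs (2.05% of all tested genes were), the feedback inhibitor Socs3 (log2 fold change -0.71, adjusted p = 0.00196, SE 0.16) and the receptor Il21r (log2 fold change -0.62, adjusted p = 0.00287, SE 0.15), and with the covariate neither passed. Il21r also lost its call with a pseudocount of 1, median-of-ratios scaling, quantile normalization, without animals 3102 to 3105, and in 7 of 24 fits that left out 1 animal.

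Genes of fibrosis and extracellular matrix were negative in all 33 cases, with 7 lower DEGs (2.05% of all tested genes were) and a list median of -0.49. The 7 were Mmp7, Tnc, Postn, Col8a1, Col15a1, Timp1 and Vim. Median-of-ratios scaling gave 5 lower DEGs in the list, the covariate 3, and leaving out animal 3011 gave 10. Mmp7, matrilysin, a protease of injured epithelium, ran from 1.05 to 5.96 FPKM (median 2.33) with Compound 1 and from 0.413 to 1.24 FPKM (median 0.78995) with the combination. Its log2 fold change was -1.46 (adjusted p = 0.00136, SE 0.31), and 10 of 12 combination animals were below every Compound 1 animal. Tnc, tenascin C, a glycoprotein of remodelling matrix, ran from 3.798 to 10.4 FPKM (median 7.64) and from 2.799 to 5.56 FPKM (median 3.67), a log2 fold change of -0.86 (adjusted p = 1.20e-04, SE 0.14).

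Postn, periostin, had a log2 fold change of -0.84 (adjusted p = 0.0103, SE 0.24) and Col8a1, a short-chain collagen, one of -0.73 (adjusted p = 0.00129, SE 0.15). For Mmp7, Tnc and Postn animal 3011 was the lowest of its group. The major fibrillar collagens came close to the fold threshold without passing it. Col1a1 ran from 27.98 to 74.04 FPKM (median 50.03) with Compound 1 and from 24.7 to 52.5 FPKM (median 31.5) with the combination (log2 fold change -0.58, adjusted p = 0.00268, SE 0.13), and Col3a1 had a log2 fold change of -0.58 (adjusted p = 0.00204, SE 0.13). Without animal 3011 the values were -0.65 and -0.66. Fn1, fibronectin, and Tgfb1, the main profibrotic growth factor, had log2 fold changes of -0.50 (adjusted p = 0.00196, SE 0.11) and -0.40 (adjusted p = 0.00196, SE 0.09), both short of the threshold.

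Leukocyte markers gave lower DEGs in part, beside 2.05% of all tested genes called lower. All 17 tested macrophage and monocyte genes had a negative fold change, 5 were lower DEGs (Cd163, Trem2, Cd14, Gpnmb and Fcgr2b), and the list median was -0.53. Cd14, the lipopolysaccharide co-receptor, ran from 9.81 to 24.5 FPKM (median 13.3) with Compound 1 and from 6.697 to 11.4 FPKM (median 8.37) with the combination, a log2 fold change of -0.67 (adjusted p = 3.10e-04, SE 0.12). Trem2, a lipid-sensing receptor of tissue macrophages, had -0.75 (adjusted p = 8.36e-04, SE 0.15), and Gpnmb, a lysosomal glycoprotein of lipid-laden macrophages, had -0.66 (adjusted p = 0.00129, SE 0.14). Cd68, a lysosomal marker of most macrophages, did not reach the fold threshold (log2 fold change -0.44, adjusted p = 0.00997, SE 0.12). All 12 combination animals were below the Compound 1 median for these 4 genes. The summed FPKM of the list ran from 907 to 2052 with Compound 1, against 797 to 1376 with the combination, and no marker had a mean of 0 in either group. The macrophage count was 2 under median-of-ratios scaling, 0 with the inner medulla covariate and 8 without animal 3011.

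Cd163, the haemoglobin scavenger receptor of resident macrophages, had its highest group mean with Compound 1. Its level ran from 0.632 to 2.65 FPKM (median 1.49) with Compound 1 and from 0.439 to 1.07 FPKM (median 0.767) with the combination, a log2 fold change of -0.77 (adjusted p = 0.00794, SE 0.21). All 12 combination animals were below the Compound 1 median, and some Compound 1 animals, 3009 and 3011 among them, lay within the combination's range. The means in Vehicle and with Enalapril were 0.719 and 0.676 FPKM, near the combination mean of 0.746. Cd163 was not a DEG with a pseudocount of 1, quantile normalization, the inner medulla covariate or without animals 3102 to 3105.

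All 17 T and B cell genes were on the lower side, with a median of -0.57. Among them 5 were lower DEGs (2.05% of all tested genes were), including Cd27, Cd79b, Mzb1 and Ms4a1. Cd27, a co-stimulatory receptor of T and memory B cells, ran from 0.804 to 2.55 FPKM (median 1.83) with Compound 1 and from 0.1604 to 1.53 FPKM (median 0.775) with the combination, a log2 fold change of -1.05 (adjusted p = 0.00204, SE 0.24). Cd79b, of the B cell receptor, had -0.77 (adjusted p = 0.00471, SE 0.19). Cd3d, of the T cell receptor complex, did not pass (log2 fold change -0.39, adjusted p = 0.0504, SE 0.15). The summed FPKM of the list ran from 90.1 to 237 with Compound 1, against 75.7 to 139 with the combination, so the groups overlapped. Median-of-ratios scaling gave 3 lower DEGs and the covariate 1. The part that these leukocyte transcripts have in the cytokine, matrix and complement differences was not tested.

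Mast cell, neutrophil and complement genes completed the immune lists, and their counts stand beside 2.05% of all tested genes called lower. Of 5 tested mast cell genes 2 were lower DEGs, the chymase-family protease Mcpt2 (log2 fold change -0.80, adjusted p = 0.00556, SE 0.21) and the granule carboxypeptidase Cpa3 (log2 fold change -0.67, adjusted p = 0.0271, SE 0.22). Mcpt2 averaged 15.6 FPKM in Vehicle, 5.45 with Compound 1 and 3.06 with the combination, and reads can be shared with related proteases. S100a8, a neutrophil granule protein, was the 1 lower DEG of 3 neutrophil genes, and animal 3001 at 16.1 FPKM stood far above the next Compound 1 animal at 2.36. Its call was lost in 8 of 24 fits that left out 1 animal. With the inner medulla covariate neither mast cell gene passed. Of 42 complement and coagulation genes 9 were lower DEGs, with a median of -0.33, and there were 5 under median-of-ratios scaling and 2 with the covariate.

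Cfi, the protease that inactivates C3b, ran from 9.705 to 22.3 FPKM (median 16.3) with Compound 1 and from 6.02 to 12.3 FPKM (median 9.23) with the combination, a log2 fold change of -0.85 (adjusted p = 7.85e-05, SE 0.13). C4b had -0.75 (adjusted p = 4.96e-04, SE 0.14) and C3, the central component, -0.72 (adjusted p = 0.00107, SE 0.15). With the covariate C4b and C3 were not DEGs. For all 3 the combination animals lay below the Compound 1 median, and animal 3011 was the lowest of its group. Cfd, factor D, the 1 lower DEG of 5 adipocyte genes as well, had -0.61 (adjusted p = 0.0327, SE 0.21) and lost its call in 10 of 24 fits that left out 1 animal. Cell division genes gave 5 lower DEGs of 20 (2.05% of all tested genes were), with a median of -0.47. They were led by Birc5, Kif20a, Ccnb1 and Ccna2 at -0.70, -0.66, -0.65 and -0.62 on the log2 scale. None was left under median-of-ratios scaling or with the covariate.

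On the higher side, the proximal tubule list stood furthest above the median of all genes. All 24 proximal tubule genes had a positive fold change (median 0.34, all genes -0.10), and none reached the fold threshold; under median-of-ratios scaling 3 were higher DEGs. Lrp2, megalin, the endocytic receptor for filtered protein, ran from 56.2 to 96.4 FPKM (median 83.4) with Compound 1 and from 80.8 to 123 FPKM (median 111) with the combination, a log2 fold change of 0.38 (adjusted p = 4.96e-04, SE 0.07). The summed FPKM of the list ran from 6961 to 16602 with Compound 1, against 13947 to 17667 with the combination, and its part in the lower share of other transcripts was not tested. Lrp2 in 10 of 12 combination animals was above every Compound 1 animal. Slc34a1, the sodium-phosphate cotransporter, had 0.39 (adjusted p = 0.00282, SE 0.09), Slc5a2, the SGLT2 glucose transporter, 0.23 (adjusted p = 0.0258, SE 0.08), and Miox, which breaks down myo-inositol, 0.58 (adjusted p = 6.19e-04, SE 0.11). Miox lay just under the fold limit of 1.5 and was a DEG without animal 3011 (0.64).

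Metabolic lists gave few calls. Fatty acid oxidation had 1 higher DEG of 35 (Acot12, an acetyl-CoA thioesterase, 0.76 (adjusted p = 0.01303, SE 0.22)) and a median of 0.17. Tryptophan metabolism had 1 higher, Ddc, which makes dopamine in the tubule (log2 fold change 0.59, adjusted p = 0.00178, SE 0.13), and 1 lower, Cyp1b1 (log2 fold change -0.60, adjusted p = 0.00274, SE 0.14), of 30. Each of these lost its call in 12 of 24 fits that left out 1 animal, and Cyp1b1 also under median-of-ratios scaling. Glycolysis and gluconeogenesis had 1 higher of 25, Pklr, the liver and kidney pyruvate kinase (log2 fold change 0.64, adjusted p = 0.00255, SE 0.15), and the clock list 1 of 18, Hlf, a clock output factor (log2 fold change 0.64, adjusted p = 0.00431, SE 0.16). FXR/RXR genes had 3 higher and 3 lower DEGs of 53, the lower ones being Clu, C3 and C4b. These counts stand beside 0.274% of all tested genes called higher and 2.05% called lower. With the inner medulla covariate the higher calls of these lists did not pass the thresholds.

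Rdh16, a retinol dehydrogenase, ran from 19.2 to 76.5 FPKM (median 47.3) with Compound 1 and from 65.3 to 97.9 FPKM (median 80.1) with the combination, a log2 fold change of 0.77 (adjusted p = 3.88e-04, SE 0.14). Without animal 3011 its groups did not overlap. Slc22a2, the basolateral organic cation transporter OCT2, ran from 101 to 283 FPKM (median 166) and from 215 to 319 FPKM (median 272) (log2 fold change 0.62, adjusted p = 9.04e-04, SE 0.13), and Slco1a1, an organic anion transporter, ran from 3.31 to 17.1 FPKM (median 10.2) and from 11.1 to 22.9 FPKM (median 18.05) (log2 fold change 0.78, adjusted p = 0.0199, SE 0.25). Animal 3001 was the lowest of its group for all 3, and with the inner medulla covariate none of the 3 was a DEG. Gcm1, a transcription factor, ran from 0.874 to 2.79 FPKM (median 1.96) with Compound 1 and from 2.69 to 4.11 FPKM (median 3.22) with the combination, a log2 fold change of 0.82 (adjusted p = 0.00157, SE 0.18), and 9 of 12 combination animals were above every Compound 1 animal.

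Other genes among the 12 largest higher differences were Defb28, a beta-defensin (log2 fold change 1.52, adjusted p = 0.0437, SE 0.56), Cyp2c11, a steroid hydroxylase (log2 fold change 1.01, adjusted p = 0.0151, SE 0.30), Cacng5, a calcium channel subunit (log2 fold change 0.90, adjusted p = 0.00367, SE 0.22), Prima1, a membrane anchor of acetylcholinesterase (log2 fold change 0.78, adjusted p = 0.00592, SE 0.20), Apoc2, the cofactor of lipoprotein lipase (log2 fold change 0.74, adjusted p = 0.0116, SE 0.21), and the gene models AABR07001025.1 and AABR07058658.1 at 1.25 and 0.80 on the log2 scale. Defb28 lost its call in 12 of 24 fits that left out 1 animal. With the inner medulla covariate none of these 7 passed. Cyp2c genes are near-identical copies, so the share of reads given to Cyp2c11 is uncertain.

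Of the 12 largest lower differences, 7 were gene models named by a clone or LOC number, and Trpv6, Il19 and Mmp7 are described above. Chid1, a chitinase-domain protein, had the largest, -2.49 (adjusted p = 0.00753, SE 0.67), with a Compound 1 range of from 0.0988 to 4.47 FPKM (median 1.97) and a combination range of from 2.18e-07 to 4.401 FPKM (median 0.0649). In the combination 3 animals lay above the Compound 1 median and 9 below every Compound 1 animal, with none between. Reg3g, an antibacterial lectin of injured epithelium, ran from 0.724 to 5.0001 FPKM (median 2.44) with Compound 1 and from 0 to 2.48 FPKM (median 0.596) with the combination, a log2 fold change of -1.62 (adjusted p = 7.73e-04, SE 0.32), and its neighbour in sequence Reg3b had -1.34 (adjusted p = 3.88e-04, SE 0.24). Reads of these 2 can be shared.

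The 7 gene models were AABR07065815.2, LOC108348083, AABR07060980.1, AC096239.3, AABR07065173.1, AABR07051551.2 and AABR07034729.1, with log2 fold changes from -1.93 to -1.50. None of them passed with the covariate. LOC108348083, AC096239.3 and AABR07034729.1 lost their calls in 18, 15 and 11 of 24 fits that left out 1 animal.

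Other segments and cell types had few calls. As 2.33% of all tested genes were DEGs, lists this short can hold none at that share. Genes of the thick limb with the distal tubule (13 tested), intercalated cells (12), podocytes (12), endothelium (12), smooth muscle and pericytes (12) and aldosterone-responsive sodium transport (13) gave no DEG. Egf, made in the thick ascending limb, had 0.46 (adjusted p = 0.0255, SE 0.15), and Aqp2, the vasopressin-regulated water channel, -0.07 (adjusted p = 0.473, SE 0.07). Nphs1, nephrin of the podocyte, had 0.22 (adjusted p = 0.186, SE 0.12), and Acta2, smooth muscle actin, -0.24 (adjusted p = 0.0773, SE 0.10). The 5 inner medulla markers gave no DEG either, with Slc14a2, the urea transporter, at -0.16 (adjusted p = 0.317, SE 0.11). Aqp4, another of the 5, passed after adjustment in limma but fell short of the fold threshold (log2 fold change -0.47, adjusted p = 0.00684). Collecting duct genes had 1 lower DEG of 14, the keratin Krt18 (log2 fold change -0.63, adjusted p = 4.63e-04, SE 0.12), which is on the injury list as well. No DEG stood among MHC class II (10), interferon-stimulated (22), immediate early (19), cholesterol synthesis (21), NRF2 target (30) or unfolded protein and heat shock (24) genes, nor among kallikrein-kinin (4), glucocorticoid-responsive (16) or erythroid (5) genes. Glutathione metabolism had 1 lower DEG of 46, Gpx7 (log2 fold change -0.61, adjusted p = 0.001198, SE 0.13), where 2.05% of all tested genes were lower DEGs. Gpx7 lost its call with a pseudocount of 1, median-of-ratios scaling, quantile normalization, removal of mitochondrial transcripts and the covariate. It also lost its call in 7 of 24 fits that left out 1 animal.

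**Figure D4:**
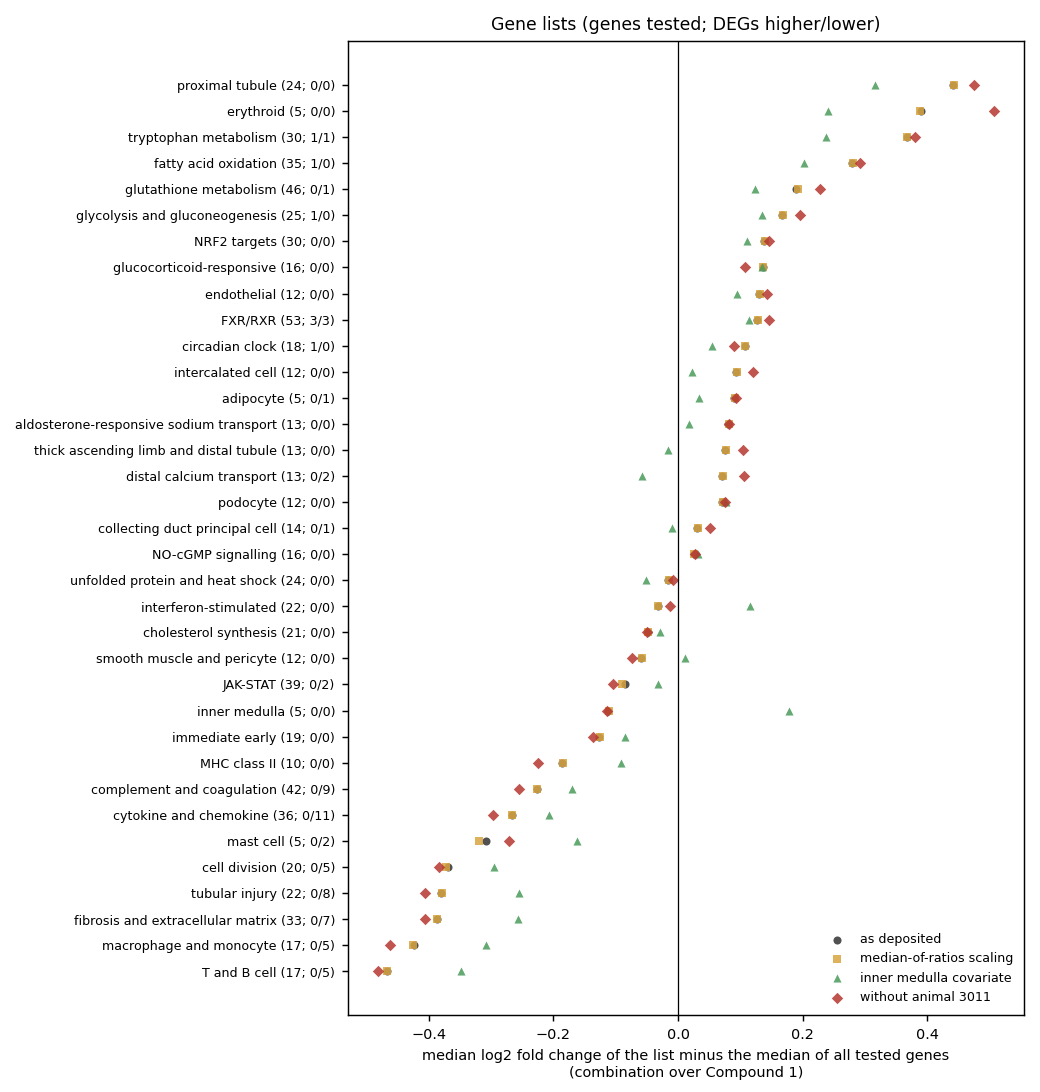
For lists with at least 5 tested genes, points give its median log2 fold change minus the median of all tested genes, for the values as deposited, with median-of-ratios scaling, with the inner medulla covariate and without animal 3011; the numbers beside each name are the genes tested and the DEGs higher and lower. The lists of T and B cells, macrophages, fibrosis, tubular injury and cell division have the lowest medians under all 4 settings, and the proximal tubule list lies to the right.

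Of further genes fixed by the naming rule, Fa2h, Esrrb, Pgam2 and Slc23a3 had log2 fold changes of 0.16, 0.10, 0.17 and 0.25, with adjusted p-values from 0.0685 to 0.659, and did not pass. Matn1, matrilin 1, had -0.25 (adjusted p = 0.233, SE 0.15). The groups overlapped for all 5 genes.

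Levels in the groups that are not part of the contrast were set beside it as a description. For the 277 lower DEGs the Vehicle mean was nearer the Compound 1 mean in 265 and the Enalapril mean nearer the combination mean in 235. For the 37 higher DEGs these numbers were 34 and 32. The same numbers were not computed over all tested genes, and DEGs were picked for a gap between the combination and Compound 1. Whether these counts are particular to the DEGs was therefore not tested. The difference between the combination and Compound 1 was also tested against that between Enalapril and Vehicle in the same fit. There, 1 gene of 13482 (0.00742%) passed, Kcne1, a potassium channel subunit, and 579 had an unadjusted p under 0.05. That number is no larger than the limit of 0.05 gives on average when no gene differs.

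**Figure D5:**
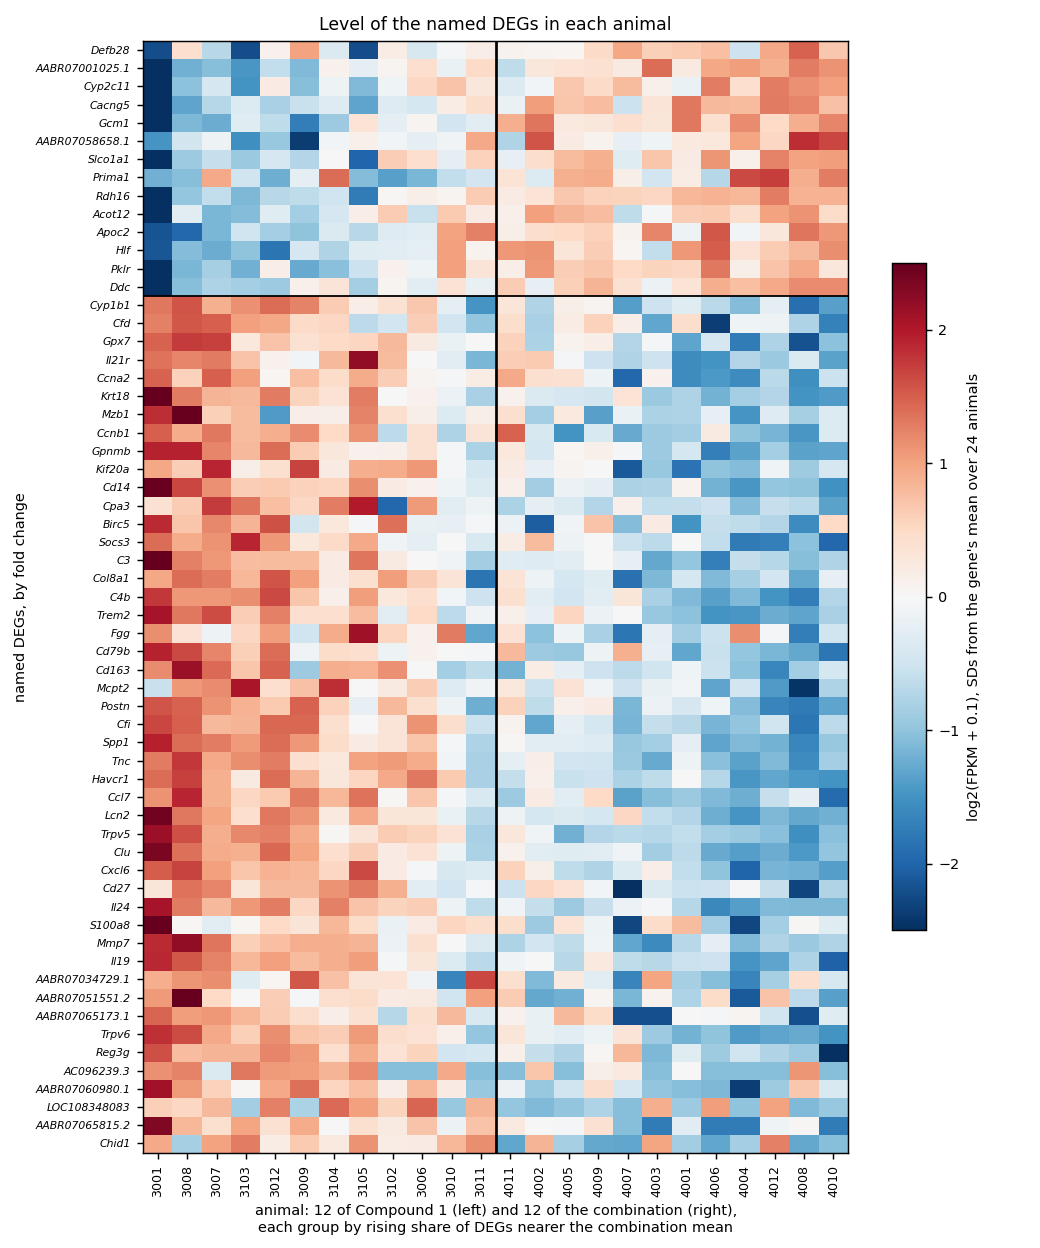
Rows are DEGs named by rule, ordered by fold change, and columns the 24 animals, 12 of Compound 1 to the left of the thick line; colour gives log2(FPKM + 0.1) in SDs from the gene's mean over these animals, red above and blue below. Columns of each group are ordered by the share of DEGs on which the animal is nearer the combination mean, from animal 3001 (1.90%) to animal 3011 (87.1%) on the left, and animal 3011 shows the colours of the right-hand block for most lower DEGs.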

How the data were processed

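Kidney RNA was sequenced from 44 rats, 1 library per animal, with stranded mRNA libraries. The authors deposited FPKM for 32883 entries, and per the labels the submitters' notes name the rat build rn6; the aligner and counter were not given in the sources used here. In the study, counts were tested against Vehicle only. FPKM are not counts, so log2(FPKM + 0.1) was tested in R 4.3.3 by limma 3.58.1 (trended variance), in 1 fit of the 4 labelled groups (Vehicle 11, Enalapril 9, Compound 1 12, combination 12). The contrast was combination minus Compound 1, and fold changes are on the log2(FPKM + 0.1) scale, which understates the change of low genes. Entries above 1 FPKM in 9 or more animals (13482) were tested, with Benjamini-Hochberg adjustment over all of them, and DEGs passed 0.05 after adjustment with a fold change over 1.5 or below 0.66, two-sided. Single values of the libraries were compared by two-sided permutation tests with 100000 resamples. Relative depth came from ratios of low FPKM between libraries, and no counting interval can be given. Of 2 columns that belong to no animal, 2 were empty. Where a symbol stood on more than 1 entry (295 symbols), a listed gene was read from its most abundant entry.

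The comparison and the 38 gene lists were chosen with earlier results of these data known. The rule named 84 genes: the 12 largest DEGs in each direction, up to 4 DEGs of each list, genes the study names with its RNA or urine data, the first marker of each cell type list, and interaction DEGs. Smim1 and the genes Gucy1b2, Guca2b, Agt, Ace, Slc34a1, Slc5a2, Miox, Slc22a2, Col1a1, Col3a1, Fn1, Tgfb1, Cxcl1, Ccl20, Ccl2, Il1b, Calb1, S100g, Reg3b, Foxp3, Lrat and Lamb3, the keratins and the fibrinogens of the closing section were named after their values were seen, as were members of lists given without values. Some genes are not reported here. Promoters are RefSeq sequences of build GRCr8, matched by symbol.

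Alternatives tried were other pseudocounts (1 and 0.01), a filter at 5 FPKM or none, quantile normalization, scaling by median of ratios, removal of mitochondrial transcripts, sample weights, no fold threshold, an inner medulla marker score as covariate, the 24 animals alone, leaving out animals 3102 to 3105, leaving out 6 animals listed apart from the others of their groups in the series (2005, 2011, 2012, 3103, 3011 and 4005), a rank-sum test, and leaving out each animal. Median-of-ratios scaling with the covariate and the same scaling without animal 3011 were added after seeing the data. The test was checked on simulated data.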

Additional observations from a re-analysis of the deposited data

Results flagged for a closer look

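Kcne1, a potassium channel subunit, was the 1 gene for which the difference between the combination and Compound 1 differed from that between Enalapril and Vehicle in the limma interaction test. Its mean was 4.56 ± 1.09 FPKM in Vehicle (SD, n = 11), 2.94 ± 0.975 with Enalapril (n = 9), 2.78 ± 0.739 with Compound 1 (n = 12) and 4.11 ± 0.781 with the combination (n = 12). The difference of the 2 log2 fold changes was 1.21 (SE 0.23, adjusted p = 0.0342). Between the combination and Compound 1 alone its log2 fold change was 0.58 (adjusted p = 0.00643), just under the fold threshold, and 7 of 12 combination animals were above every Compound 1 animal. The interaction was not a DEG with no filter, with median-of-ratios scaling, with quantile normalization, without mitochondrial transcripts, without animals 3102 to 3105, under either scaling added later, or in 11 of 24 fits that left out 1 animal, and Kcne1 was too low to be tested with FPKM above 5.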

How the results depend on the processing

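Lower DEGs outnumbered higher ones under every alternative run, and no gene named in the text changed sign among its called values; the size of the counts did change. Total, higher and lower DEGs numbered 115, 18 and 97 with a pseudocount of 1, 134, 24 and 110 with FPKM above 5, 2989, 637 and 2352 with no fold threshold, 487, 58 and 429 with sample weights, 73, 3 and 70 with the inner medulla covariate, and 502 and 448 (total and lower) without the 6 animals listed apart. The 90 higher and 147 lower DEGs of median-of-ratios scaling, and the 105 and 108 of quantile normalization, moved the split between directions. Added after seeing the data, median-of-ratios scaling with the covariate gave 182, 61 and 121, and the same scaling without animal 3011 gave 136 higher DEGs. Leaving out 1 animal at a time gave 210 (animal 3001) to 443 (animal 3011) DEGs, 14 to 53 higher and 196 to 390 lower. The interaction gave 0 to 1 DEG in those fits, and 0 with no filter, FPKM above 5 (where Kcne1 was not tested), both scalings, removal of mitochondrial transcripts, leaving out animals 3102 to 3105, and both added settings. The cause of these shifts was not tested, apart from the fewer genes tested at FPKM above 5 and the wider call without a fold threshold. Of named genes tested, 54 lost their call with the covariate, 28 with a pseudocount of 1, 27 with quantile normalization and 21 with median-of-ratios scaling. No paired analysis was possible because the groups hold separate animals with different numbers. Read totals are unknown, so the precision of genes near 1 FPKM cannot be given.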

Other observations

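Fibrinogen, whose chains clot in plasma and are also made by injured tubule cells, was lower in the combination for all 3 genes, which were looked up after their values were seen. Fga ran from 15.2 to 35.9 FPKM (median 24.7) with Compound 1 and from 13.04 to 21.1 FPKM (median 15.4) with the combination, Fgb from 10.01 to 25.4 FPKM (median 18.5) and from 6.796 to 14.1 FPKM (median 11.7), and Fgg from 1.15 to 7.29 FPKM (median 3.13) and from 0.865 to 4.38 FPKM (median 1.77). The log2 fold changes were -0.62, -0.72 and -0.77, each a DEG in limma, and animal 3011 was the lowest Compound 1 animal for all 3. Lamb3, a chain of a basement membrane protein of epithelia, had a log2 fold change of -0.79 (adjusted p = 8.57e-04, SE 0.16). All 12 combination animals were below the Compound 1 median for Lamb3, whose level ran from 4.69 to 14.5 FPKM (median 9.19) and from 3.34 to 7.38 FPKM (median 5.27).

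Of 7 keratins looked up in the same way, 4 were lower DEGs (Krt17, Krt14, Krt19 and Krt18). Krt17, a stress keratin, ran from 0.531 to 2.91 FPKM (median 1.26) with Compound 1 and from 0.1799 to 0.777 FPKM (median 0.337) with the combination, a log2 fold change of -1.44 (adjusted p = 3.71e-04, SE 0.25), and Krt14, a basal keratin, had -0.97 (adjusted p = 0.0126, SE 0.28). Krt19, of ducts, was a DEG (log2 fold change -0.64, adjusted p = 0.00387, SE 0.16), while the abundant simple keratins Krt8 and Krt7 had -0.35 and -0.32 with adjusted p-values of 8.53e-04 and 0.00191, below the fold threshold. Krt5 did not pass (log2 fold change -0.35, adjusted p = 0.525, SE 0.39). Lrat, which esterifies retinol for storage, ran from 1.51 to 3.79 FPKM (median 2.69) and from 0.51 to 1.58 FPKM (median 1.195), a log2 fold change of -1.20 (adjusted p = 3.94e-05, SE 0.17), and 10 of 12 combination animals lay below every Compound 1 animal. Foxp3, the factor of regulatory T cells, had -0.65 (adjusted p = 0.0306, SE 0.22). With the inner medulla covariate, Fga, Fgg, Lamb3, Krt14, Krt18, Krt19 and Foxp3 were not DEGs. Under median-of-ratios scaling Fga, Krt18, Krt19 and Foxp3 were not DEGs, and under quantile normalization Fga, Fgg, Krt14, Krt18 and Foxp3 were not. Foxp3 lost its call in 6, Fga in 5, and Krt18 and Krt19 in 3 each of 24 fits that left out 1 animal.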
